A study of Arabidopsis thaliana with 24 samples.

Results

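Acyl-ACP thioesterases end fatty acid synthesis in the plastid, and the 3 genes for these enzymes in Arabidopsis thaliana were followed here through the development of siliques and seeds. The genes were found by name, as the probe sets that the array annotation assigns to exactly 1 gene and that gene to a plastid acyl-ACP thioesterase. This gave FaTA (locus AT3G25110, probe set 257814_at), AT4G13050 (probe set 254798_at) and FATB (locus AT1G08510, probe set 261722_at), 1 probe set each, out of 13513 probe sets with exactly 1 gene and 22810 in all. All 3 were among the 16940 probe sets bright enough to be tested.

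In the plastid a growing fatty acid stays bound to acyl carrier protein (ACP) while it is lengthened and, for oleate, desaturated. A thioesterase cuts it from ACP as a free fatty acid, which leaves the plastid and enters membrane lipids, surface waxes or, in a seed, storage oil. FATA enzymes prefer unsaturated oleoyl-ACP, the main source of the C18 fatty acids of seed oil. FATB prefers saturated acyl-ACPs such as palmitoyl-ACP, and supplies saturated fatty acids in many tissues. FaTA and AT4G13050 are the genes of the FATA type (also called FATA1 and FATA2).

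The series holds 24 Affymetrix ATH1 arrays of the wild-type accession Col-0 with no treatment or transgene named, in 8 groups of 3. Whole siliques, that is the fruit wall and the seeds inside it, were sampled at stages 3, 4 and 5, and seeds taken out of the siliques at stages 6, 7, 8, 9 and 10. The labels give stage numbers without days, and describe growth (long days, on soil) for stage 3 only. Nothing in the labels says that arrays of one group are from different plants. The p-values below therefore measure only how far these samples spread, and that spread may be technical. Signals are the authors' scaled MAS5 intensities, in arbitrary units, and each probe set has its own response, so levels are compared between groups within a gene and not between genes. In whole siliques and whole seeds, fewer cells of a type and less RNA per cell cannot be told apart.

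Both genes of the FATA type had a transient course and FATB a nearly flat one. FaTA started at 34.4 ± 3.32 (SD, n = 3) in siliques stage 3, stood at 365 ± 36.4 in seeds stage 7 and ended at 44.1 ± 1.98 in seeds stage 10. AT4G13050 started at 71.8 ± 10.3, stood at 272 ± 15.96 in seeds stage 6 and ended at 12.9 ± 5.64. FATB started at 460.02 ± 53.8, had its highest mean, 653 ± 49.2, in siliques stage 4, and its lowest, 450.04 ± 41.1, in seeds stage 10. The highest group mean was 10.6 times the lowest for FaTA and 1.45 times for FATB. For AT4G13050 no such fold is given, since its lowest groups, seeds stages 9 and 10, held arrays near background. The probe sequences were not used here, so cross-hybridization between the FaTA and AT4G13050 probe sets was not checked.

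**Figure D1:**
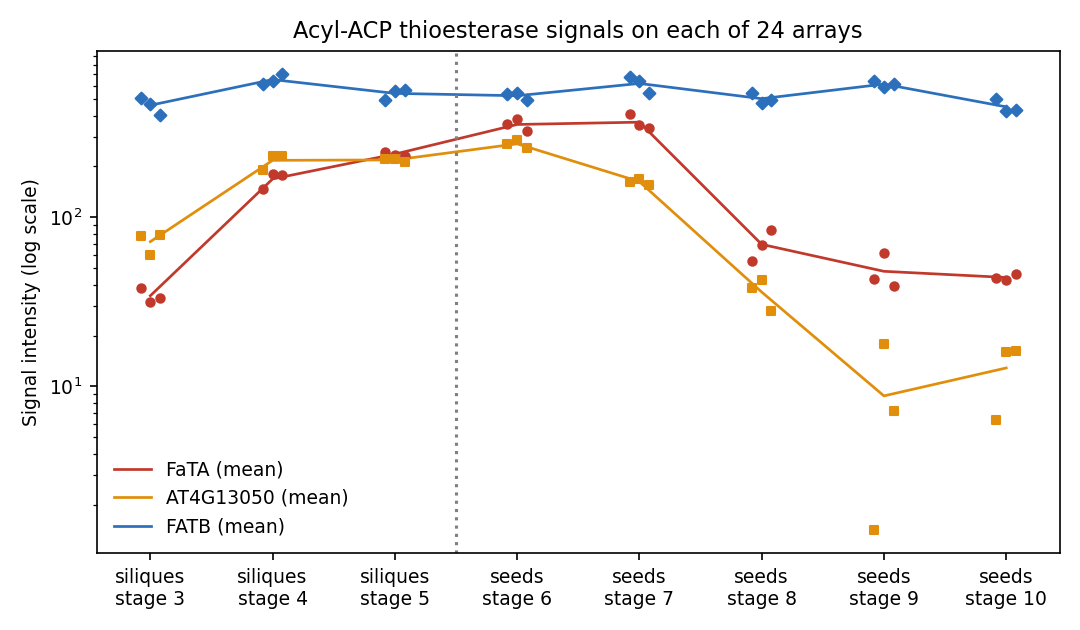
Signal intensity (log scale) of FaTA, AT4G13050 and FATB on each of the 24 arrays, by group. Each point is 1 array and lines join group means of 3. The dotted line marks the change from whole siliques to seeds. FaTA and AT4G13050 are high in the middle groups and low at both ends, and FATB stays between 402 and 708 on every array.

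FaTA, the first gene of the FATA type, had signals of 38.1, 31.7 and 33.3 in siliques stage 3 (arrays A, B and C). In siliques stage 4 it had 148, 181 and 177, and in stage 5 244, 235 and 231. These 3 groups did not overlap, and each lay above the one before. In seeds it had 355, 382 and 325 at stage 6 and 407, 352 and 337 at stage 7, 2 groups that overlapped and held its highest arrays. At stage 8 the signals were 54.9, 68.2 and 84.5, all far below those of stage 7. At stage 9 they were 43.4, 61.4 and 39.1, and at stage 10 they were 43.5, 42.4 and 46.3. These last groups overlapped each other, and stage 9 also overlapped stage 8. Ordered by mean, the groups ran from seeds stages 7 and 6 through siliques stages 5 and 4 to seeds stages 8, 9 and 10 and siliques stage 3, and each pair of neighbours was apart on every array except stages 7 and 6, 8 and 9, and 9 and 10. Seeds stage 8 stood at 18.9% of the highest mean and stage 10 at 12.1%.

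AT4G13050, the second gene of the FATA type, read 77.1, 59.9 and 78.4 in siliques stage 3, 191, 231 and 229.5 in stage 4, and 222, 220 and 213 in stage 5. Stages 4 and 5 overlapped and both lay above stage 3. In seeds stage 6 it read 273, 288 and 256, its highest group. By stage 7 its arrays were at 163, 169.5 and 156, all below those of stage 6, while FaTA was still at its highest. Stage 8 held 38.0, 42.7 and 27.8, below siliques stage 3. At stage 9 the arrays read 1.41, 17.9 and 7.11, and at stage 10 they read 6.34, 16.02 and 16.2. On 2 of the 3 arrays of stage 9 and 1 of the 3 of stage 10 the signal lay under the 20th percentile of the array, so these late levels lie near background. Seeds stage 10 was at 4.72% of the highest mean, against 26.4% in siliques stage 3.

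FATB read 508.5, 469 and 402 in siliques stage 3, 614, 636 and 708 in stage 4, and 491, 561.5 and 569 in stage 5. In seeds it read 534, 541 and 496 at stage 6, 673, 642 and 542 at stage 7, and 544, 472 and 492 at stage 8. The last stages had 639.8, 589 and 613 at stage 9 and 497, 424 and 429 at stage 10. When the groups were ordered by mean, every pair of neighbours overlapped except seeds stage 9 and siliques stage 5. No group mean was under 68.9% of the highest. The spread between the 3 arrays of a group had a median of 7.72% of the mean for FATB, 9.82% for FaTA and 12.4% for AT4G13050.

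Changes were tested with limma on log2(signal + 7.00), an offset that shrinks changes of low signals, in one fit over all groups. Calls needed a change of at least 2-fold and an adjusted p (Benjamini-Hochberg) below 0.05, and "rose" and "fell" are used of called changes only. In siliques stage 5 over stage 3, both FATA-type genes rose, and 21.3% of all tested probe sets were called, 10.4% as rises. FaTA rose by 2.56 ± 0.13 (SE) on the log2 scale (limma adjusted p = 1.36e-14), and AT4G13050 by 1.52 ± 0.24 (adjusted p = 7.57e-06). FATB, with a difference of 0.23 ± 0.09 and a 95% interval of 0.04 to 0.42 (adjusted p = 0.0311), was not called because the difference was under 2-fold, and it was 0.14 (adjusted p = 0.219) without siliques stage 3 array C. The median change of all tested probe sets was -0.03.

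Most of that rise lay in the first step. In siliques stage 4 over stage 3, where 18.8% of probe sets were called and 6 of the 12 pathway genes described further on rose, FaTA rose by 2.08 ± 0.13 and AT4G13050 by 1.51 ± 0.24 (limma adjusted p = 9.9e-13 and 9.55e-06). FATB was higher by 0.50 ± 0.09, with adjusted p = 4.51e-05 and all 3 arrays above those of stage 3, which is its largest step and still under 2-fold. In siliques stage 5 over stage 4 none of the 3 genes was called, where 3.34% of probe sets were, and the differences were 0.48 for FaTA, 0.01 for AT4G13050 and -0.27 for FATB, with limma adjusted p of 0.0122, 0.984 and 0.0425.

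Over the same stages the RNA of whole siliques changed in other ways. The summed signal of the seed reserve markers (3 of 12 had a probe set of their own: AT1G03890, PAP85 and OLEO3) ran from 27.9 to 40.2 in siliques stage 3, from 2387 to 2415 in stage 4 and from 5804 to 5942 in stage 5. That of the silique wall markers (4 of 9: ALC, ADPG1, YAB3 and SPT) ran from 375 to 443, 403 to 429 and 456 to 467, and that of pollen markers (3 of 3) from 1681 to 1699 in stage 3 and at most 263 after it. Most of the pollen sum was AT5G45880, with a mean of 1572 at stage 3, where ANX2 had 87.8 and MGH3 27.3. AT5G45880 also had means of 171, 178 and 195 in seeds stages 8, 9 and 10. The wall sum joins genes that moved in opposite directions. From stage 3 to stage 5 the mean of ALC went from 324 to 161. Those of ADPG1, YAB3 and SPT went from 19.2 to 117, from 29.5 to 59.3 and from 36.1 to 125. The seed share of the RNA was not measured, and its part in the rise of the FATA-type genes was not tested. Array titles carry the letters A to C at stage 3 and D to F at stages 4 and 5, so the letter and the stage cannot be told apart here. The ratio of 3' to 5' signal for actin, which is higher in degraded RNA, lay between 3.78 and 4.36 at stage 3 and between 2.44 and 2.89 in the later siliques.

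**Figure D2:**
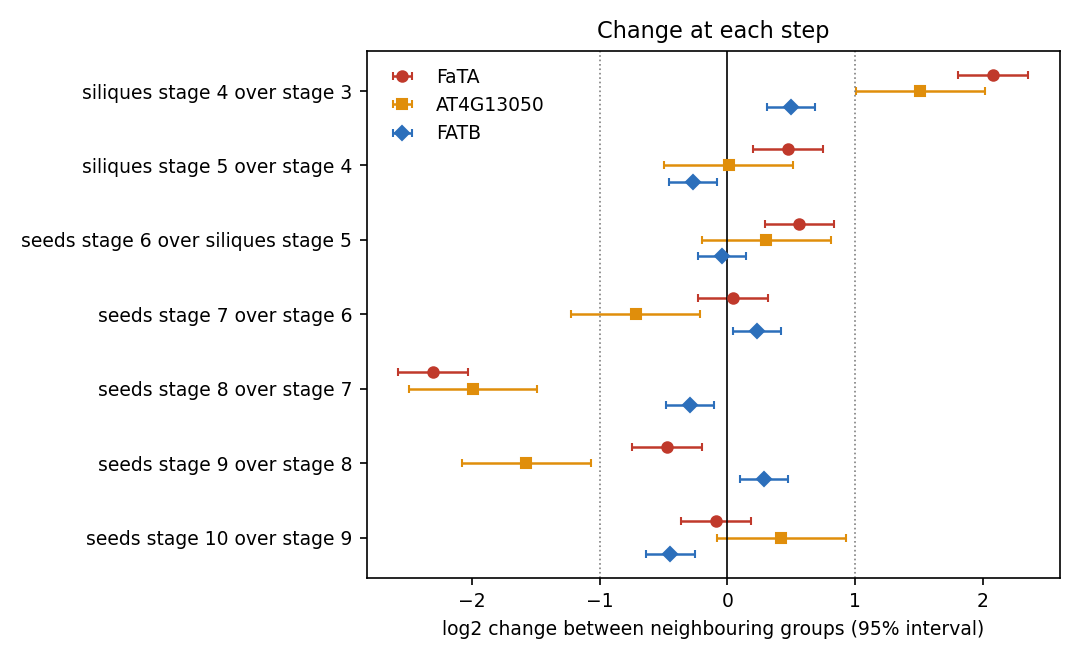
log2 change of each gene between neighbouring groups, with 95% intervals from the limma fit; dotted lines mark 2-fold. FaTA and AT4G13050 pass 2-fold upward at the first silique step and downward between seeds stages 7 and 8, AT4G13050 passes it downward again between stages 8 and 9, and no FATB interval reaches 2-fold.

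Seeds stage 6 over siliques stage 5 combines a later stage with the removal of the wall, and the title letters change too. None of the 3 genes was called in this comparison, where 11.6% of probe sets were. FaTA was higher by 0.57 ± 0.13 (SE, limma adjusted p = 0.00105), with all 3 seed arrays above the silique arrays, AT4G13050 by 0.31 ± 0.24 (adjusted p = 0.325), and FATB differed by -0.04 ± 0.09 (adjusted p = 0.733). For FATB the 95% interval ran from -0.23 to 0.15. The wall markers ALC and ADPG1 were at 161 and 117 in siliques stage 5 and at 36.6 and 16.03 in seeds stage 6, while the sum over all 4 wall markers was between 328 and 349, with YAB3 and SPT at 59.3 and 125 in the siliques and 112 and 172 in the seeds. The green tissue markers (5 of 7: RCA, LHCB4.2, LHCB4.1, PSAN and PSAE-1) summed to between 9507 and 10335 in siliques stage 5 and between 5213 and 6052 in seeds stage 6.

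Within the isolated seeds FaTA had its one called step between stages 7 and 8, and AT4G13050 had called steps from stage 7 to 8 and from 8 to 9, after a lower value at stage 7 already. In seeds stage 7 over stage 6 none of the 3 genes was called, against 3.49% of probe sets, but their values differed. FaTA had a difference of 0.04 (95% interval -0.23 to 0.32), AT4G13050 of -0.72 (interval -1.22 to -0.21, limma adjusted p = 0.0329) and FATB of 0.23 (interval 0.04 to 0.42). In seeds stage 8 over stage 7 FaTA fell by 2.30 ± 0.13 (SE) and AT4G13050 fell by 1.99 ± 0.24 (limma adjusted p = 1.3e-13 and 1.34e-07), when 19.3% of probe sets were called and 11.3% fell. FATB, at -0.29 ± 0.09 (adjusted p = 0.00806), was not called. It stood at -0.05 (limma adjusted p = 0.688) with arrays centred on reference genes. Without the 6 seed arrays whose 25S ribosomal RNA control read over 1000 it was -0.47, a value that rests on array B alone at stage 8. In terms of the raw means FaTA went from 365 to 69.2 and AT4G13050 from 163 to 36.1, while FATB went from 619 to 503. At the same step the summed green tissue markers went from between 4022 and 4145 to between 1581 and 1636, and the seed coat markers from between 1930.3 and 2053 to between 833 and 869. The 3' probe set of the GAPDH control went from between 2044 and 2167 to between 365 and 436, and the ubiquitin 3'/5' ratio from between 1.49 and 1.74 to between 1.95 and 2.52. The actin 3'/5' ratio overlapped, at 2.39 to 2.88 in stage 7 and 2.51 to 3.10 in stage 8. The part of these shifts in the fall of the FATA-type genes was not tested.

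In seeds stage 9 over stage 8, where 3.65% of probe sets were called, AT4G13050 fell by 1.57 ± 0.24 (SE, limma adjusted p = 2.43e-05), and FaTA had a difference of -0.47 (adjusted p = 0.00896) and FATB of 0.29 (adjusted p = 0.0214). This fall of AT4G13050 ends near background and depends on the offset: an offset 4 times larger gave -0.82, which is no call, and no offset gave -2.66. The difference between the 2 genes at this step was not tested by itself. In seeds stage 10 over stage 9 no gene of the 3 was called, against 1.72% of probe sets, with differences of -0.08 for FaTA, 0.42 for AT4G13050 and -0.44 for FATB. The AT4G13050 value, between levels near background, ran from 0.04 without seeds stage 9 array A to 0.82 without array B, and was 1.07 with no offset. The limma adjusted p was 0.00101 for FATB, whose 3 arrays at stage 10 all lay below those of stage 9.

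Over the whole course of the seeds, stage 10 over stage 6, FaTA fell by 2.82 ± 0.13 (SE, limma adjusted p = 7.73e-16) and AT4G13050 fell by 3.86 ± 0.24 (adjusted p = 3.42e-13), where 33.8% of probe sets were called and 19.7% fell. The size of the AT4G13050 change ran from -2.89 with an offset 4 times larger to -4.52 with none. FATB had a difference of -0.22 ± 0.09, with a 95% interval of -0.41 to -0.03 (adjusted p = 0.0359), and its sign was not stable: with the arrays centred on published reference genes, a scaling under which the all-gene median change was 0.27 in place of 0.02, the difference was 0.04. Under that scaling FaTA and AT4G13050 still fell. In the same arrays the summed green tissue markers went to between 753 and 771 at stage 10, the seed coat markers (5 of 5) from between 2895 and 2987 at stage 6 to between 431 and 526, and the 3' probe set of the GAPDH control from at least 2528 to at most 162. The ubiquitin 3'/5' ratio ran from 1.60 to 2.03 at stage 6 and from 2.06 to 2.28 at stage 10. The actin 3'/5' ratio went the other way, from between 2.79 and 3.13 to between 2.02 and 2.30. The part of these shifts in the loss of FATA-type signal was not tested.

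All 3 genes passed limma's F test for any difference among the 8 groups, as did 95% of tested probe sets. The adjusted p was 1.31e-18 for FaTA, 3.03e-15 for AT4G13050 and 1.77e-05 for FATB (limma), so FATB was not constant. The range of its 8 group means was 0.53 on the log2 scale, and only 5.53% of tested probe sets had a smaller one. FaTA had a range of 3.17, above 85.7% of probe sets, and AT4G13050 one of 4.28, above 93.5% and set at its low end by near-background arrays and the offset, where the median of all tested probe sets was 1.47.

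**Figure D3:**
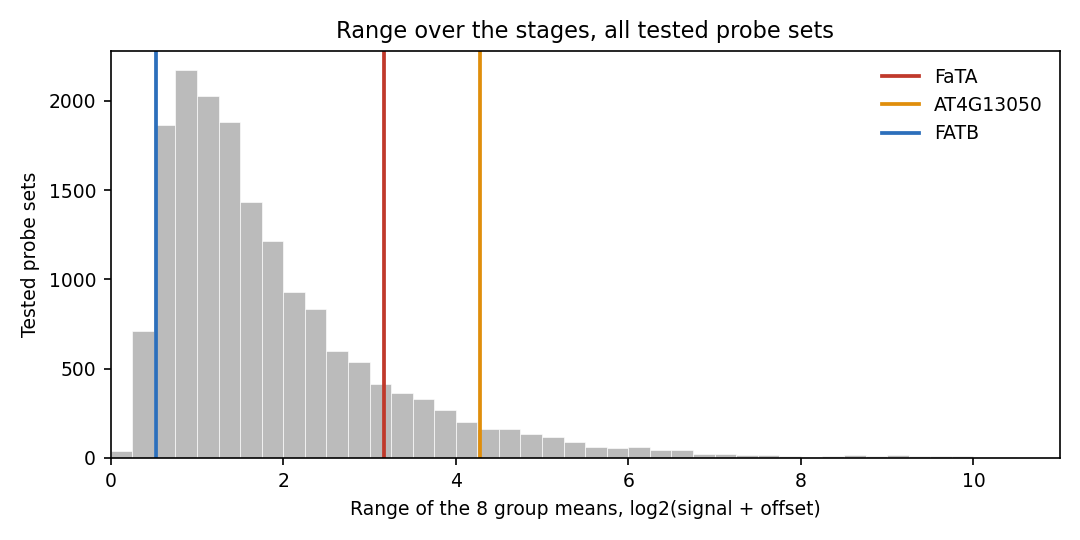
Histogram of the range of the 8 group means on the log2(signal + offset) scale for all tested probe sets, with lines for the 3 thioesterase genes. FATB, at 0.53, lies in the low tail, and FaTA and AT4G13050, at 3.17 and 4.28, lie in the long upper part.

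Whether the courses differ was tested on the difference of 2 genes within each array. This cancels the scaling of the array for signals well above the offset of 7.00, but not fully near background. The value of such a difference has no meaning by itself, and only its change over the groups is read. The genes were chosen with earlier results of these data known. The limma p-values and ranges above and the permutation p-values here and below are therefore not independent evidence. For FaTA minus FATB, siliques stage 3 had a mean difference of -3.49 ± 0.14 (SD, n = 3), seeds stage 6 had -0.56 ± 0.06, and seeds stage 10 had -3.16 ± 0.15. For AT4G13050 minus FATB it was -2.57 ± 0.29, -0.93 ± 0.03 and -4.57 ± 0.58 in the same groups. The F over the 8 groups was 107 for the first pair and 51.2 for the second, each with a permutation p = 1e-05, the smallest that 100000 permutations can give, and 4.0e-05 after adjustment over the 12 tests on pairs. In seeds stages 9 and 10 against stages 6 and 7, 6 arrays against 6, FaTA changed by -2.69 relative to FATB and AT4G13050 by -3.60, each with an exact two-sided permutation p = 0.00216, the smallest possible here, and 0.00519 adjusted. With other offsets, quantile normalization or 1 array left out, the AT4G13050 change ran from -4.57 to -2.53 and the FaTA change from -2.86 to -2.28. For siliques stage 5 over 3 and seeds stage 10 over 6 the changes relative to FATB were 2.33 and -2.60 for FaTA and 1.29 and -3.64 for AT4G13050. All 3 arrays lay apart in each, but 3 arrays against 3 cannot give an exact p under 0.1. Under the same alternatives the AT4G13050 change relative to FATB in seeds stage 10 over 6 ran from -4.30 to -2.68.

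The 2 FATA-type genes also differed from each other. FaTA minus AT4G13050 increased from -0.92 ± 0.15 (SD, n = 3) in siliques stage 3 through -0.35 ± 0.01 in stage 4 and 0.11 ± 0.02 in stage 5 to 0.37 ± 0.03 in seeds stage 6 and 1.13 ± 0.14 in stage 7. No array of any of these 5 groups overlapped with those of the next. At stages 8, 9 and 10 the means were 0.82 ± 0.50, 1.92 ± 0.59 and 1.41 ± 0.45, with a wider spread. The F over the 8 groups was 25.3 (permutation p = 1e-05, adjusted 4.0e-05). In seeds stages 9 and 10 against 6 and 7 the difference moved by 0.91 (exact permutation p = 0.0108, adjusted 0.0216, 6 arrays against 6), but by 0.25 (adjusted p = 0.193) with an offset 4 times larger. FaTA was still near its highest mean at seeds stage 7, where AT4G13050 was at 59.8% of its own, and FaTA ended at 12.1% of its highest mean where AT4G13050 ended near background.

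**Figure D4:**
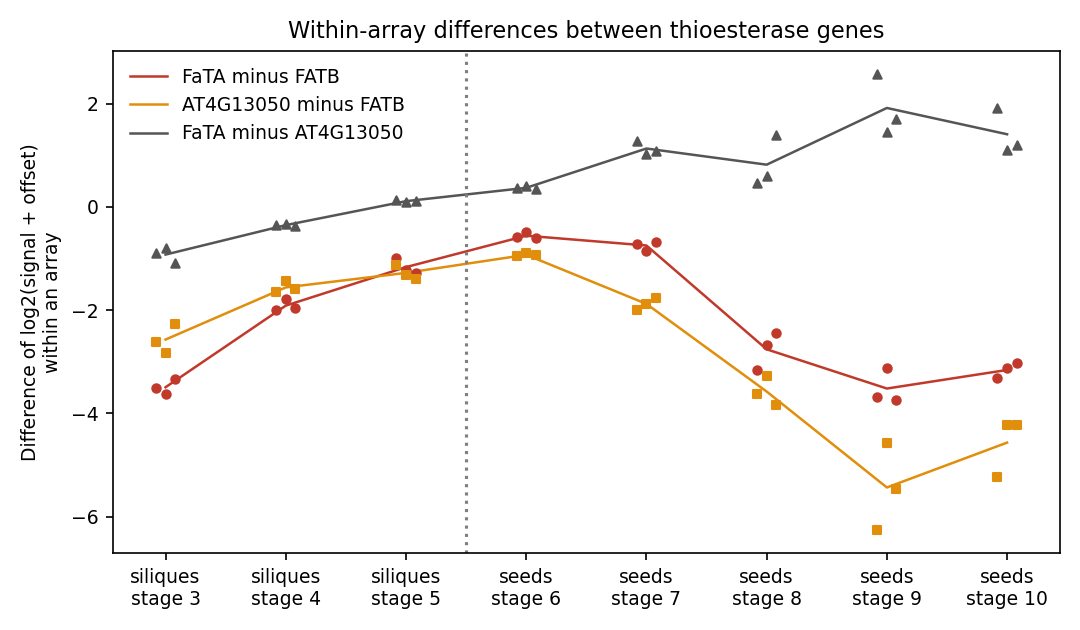
Difference of log2(signal + offset) between 2 thioesterase genes within each array, by group; points are arrays and lines join means. Both differences against FATB go up to seeds stage 6, down from there to stage 9 and up again at stage 10, and FaTA minus AT4G13050 goes up from -0.92 in siliques stage 3 to 1.13 in seeds stage 7.

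The rest of the pathway was read from lists of 38 genes upstream and downstream of the thioesterase step in the plastid, and the 12 of them that have their own single-gene probe set were all tested. In siliques stage 5 over stage 3, 9 of the 12 rose and none fell, with a median change of 1.33, where 10.4% of all tested probe sets rose and their median was -0.03. Among them were AT3G02630 and AT5G16240, for stearoyl-ACP desaturases that make the oleoyl-ACP on which FATA acts, at 2.24 and 1.88, and the third desaturase gene, AT5G16230. The latter went from 1.29 ± 1.41 (SD, n = 3), under the 20th percentile of the arrays, to 91.1 ± 0.57, so the size of its change is set by the offset and is not given. All 3 genes of the elongation cycle rose, the ketoacyl-ACP reductase gene AT1G24360 by 1.19 and the hydroxyacyl-ACP dehydratase genes AT5G10160 and AT2G22230 by 1.49 and 1.12. Of 2 genes of plastid pyruvate dehydrogenase, which supplies acetyl-CoA, AT2G34590 rose by 1.13 and AT4G16155 had a difference of 0.83. Of the 3 genes for biotin attachment domain proteins (BADC), known as inhibitors of acetyl-CoA carboxylase, AT1G52670 and AT3G15690 rose by 1.77 and 1.46 and AT3G56130, at 0.23, did not pass. These 3 were the only tested genes of the 8 on the acetyl-CoA carboxylase list. The exporter gene AT3G57280 (FAX1), whose protein passes free fatty acids out of the plastid, differed by -0.35 and was not called.

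In seeds stage 8 over stage 7, 10 of these 12 genes fell and none rose, with a median of -1.73, where 11.3% of all tested probe sets fell. The 10 included the BADC gene AT1G52670 at -2.70, the desaturase genes AT5G16240 at -2.61 and AT3G02630 at -2.32, and the dehydratase gene AT2G22230 at -2.29. In seeds stage 10 over stage 6 again 10 of 12 fell and none rose, where 19.7% of all tested probe sets fell, with a median of -3.51 against 0.02 for all of them. The largest values were those of the BADC gene AT1G52670 at -4.59, the desaturase gene AT3G02630 at -4.21 and the BADC gene AT3G15690 at -4.11. In seeds stage 10 AT1G52670 had 28.2 ± 25.7 (SD, n = 3), with its lowest array at 1.97, and AT3G15690 had 11.4 ± 5.09. These levels reach down to background, so the size of both changes and this order depend on the offset. The 2 genes that did not pass in either comparison were AT3G57280 and the desaturase gene AT5G16230. AT3G57280 stood at -0.34 and -0.43 in them, and its group means ran from 309 in siliques stage 3 to 142 in seeds stage 8. AT5G16230 stood at -0.60 and -0.36, and after 1.29 ± 1.41 (SD, n = 3) in siliques stage 3 and 227 ± 0.10 in seeds stage 7 it still had 132 ± 24.1 in seeds stage 10. In seeds stage 6 over siliques stage 5, where 11.6% of all tested probe sets were called, none of the 12 genes was, and none of the thioesterase genes.

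Oleosins coat the oil bodies in which the finished oil is stored. All 3 oleosin genes with a single-gene probe set rose in siliques stage 5 over stage 3, where 10.4% of all tested probe sets rose. OLEO3 rose by 6.91 from 20.5 ± 2.81 (SD, n = 3). AT3G01570 and AT2G25890 started near background, at 10.8 ± 7.42 and 6.27 ± 3.97, so the size of their rise depends on the offset and is not given. In seeds stage 10 over stage 6, where 33.8% of probe sets were called, OLEO3 fell by 1.73, AT2G25890 rose by 3.65, and AT3G01570, at 0.99, was not called.

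**Figure D5:**
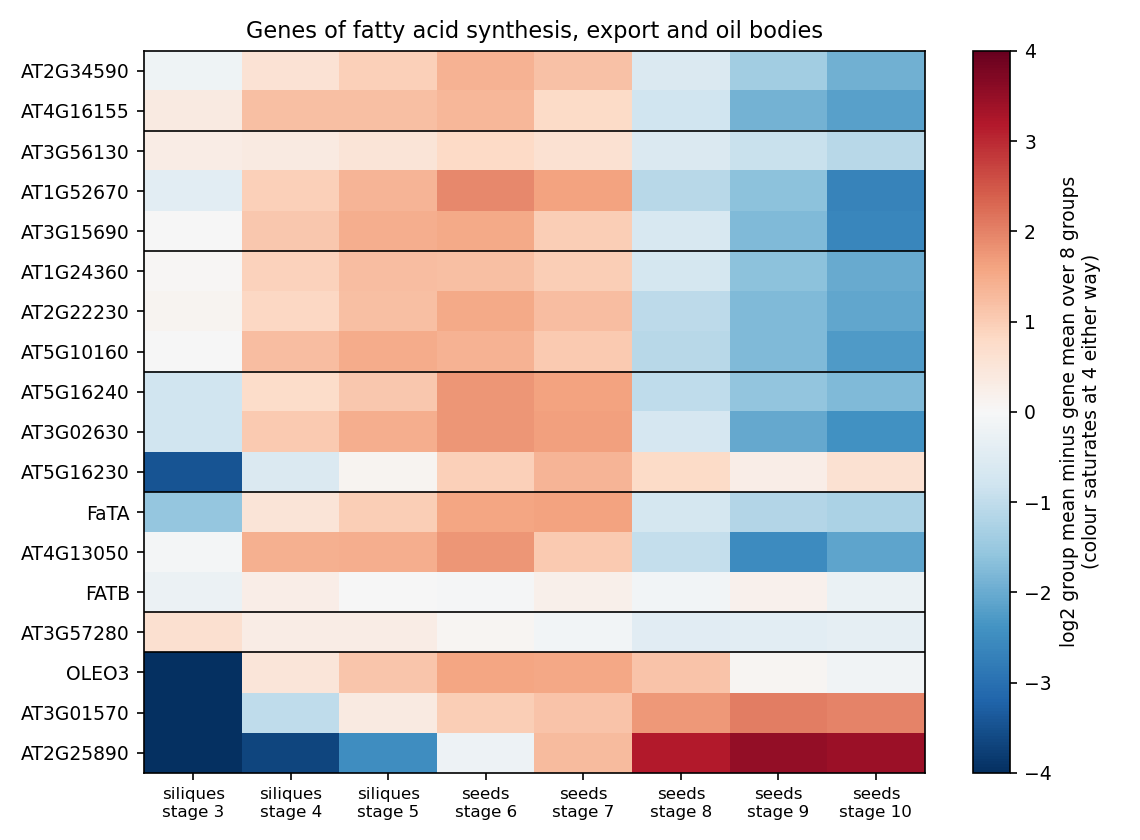
log2 group mean of each gene minus its own mean over the 8 groups. Black lines separate, from the top, pyruvate dehydrogenase, acetyl-CoA carboxylase (BADC), elongation cycle, acyl-ACP desaturases, thioesterases, export and oleosins. FaTA and AT4G13050 share the pattern of most rows above them, red in the middle groups and blue from seeds stage 8, while FATB and AT3G57280 stay pale.

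Likeness of course was measured as Pearson's r over the 8 group means, ranked over 9376 other tested probe sets with 1 gene. These r values are descriptions, since the groups are stages of one course and many genes rise and fall with it. AT4G13050 had r = 0.832 with FaTA, at rank 417, and FATB had r = 0.505, at rank 1892. The courses most like that of FaTA were those of AT4G38410, a dehydrin gene (r = 0.986), AT1G55690 (0.986), AT1G71691, for a GDSL lipase (0.985), AT4G35750 (0.983) and AT1G31460 (0.981). Those most opposite were of AT2G41200 (r = -0.985), AT3G16850 (-0.983) and AT3G21600 (-0.980). Of the pathway genes the desaturase genes AT5G16240 and AT3G02630 came closest to FaTA, with r = 0.959 and 0.929 at ranks 45 and 117.

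AT4G13050 had high r values with most of the pathway, between 0.941 and 0.985 for 10 of the 12 genes. Its r was 0.985 with the ketoacyl-ACP reductase gene AT1G24360 (rank 18) and with the pyruvate dehydrogenase gene AT4G16155 (rank 19), and 0.982 and 0.979 with the dehydratase genes AT5G10160 and AT2G22230 (ranks 26 and 31). For FaTA the same 4 genes had r from 0.764 to 0.847. These 4 were the pathway genes that ranked highest for AT4G13050, and over all 10 genes the r with FaTA ran from 0.764 to 0.959. The genes most like AT4G13050 of all were AT5G41670, for a 6-phosphogluconate dehydrogenase (r = 0.996), AT1G19970 (0.995), AT1G62020, for a coatomer subunit (0.995), AT5G23920 (0.995) and AT3G04980 (0.993). For FATB, whose small range leaves little pattern to match, the closest were AT5G66120, for a 3-dehydroquinate synthase (0.942), HBT, for a CDC27 subunit of the anaphase-promoting complex (0.936), and AT1G24650 (0.928), while the highest r among the 12 pathway genes was 0.461, for AT1G52670.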

How the data were processed

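Signal intensities on a linear scale were deposited by the authors, 1 value per probe set and array, and the submitters' processing notes name MAS5, without a version. The mean of signals between the 2nd and 98th percentiles was near 100 (99.96 to 99.97) on every array, so each value is relative to its array. No detection calls were used. Precision is limited by having 3 arrays a group.

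Groups follow the tissue label. The 64 control probe sets were left out, and probe sets were tested if their signal passed the array's 40th percentile on 3 or more arrays. The offset, 7.00, is the 20th percentile of an array's signals, taken as the median of the 24 arrays. One limma model (version 3.58.1, R 4.3.3) with a mean for each group was fitted to all 24 arrays with trended eBayes, leaving 16 residual degrees of freedom, and was checked on simulated data. Pair differences were tested by permutation in Python 3.11.15 (scipy 1.17.1, statsmodels 0.14.6), and figures drawn with matplotlib 3.10.9. The genes, lists and markers were chosen with earlier results of these data known, so no test over a list was made. Of 91 genes in 14 pathway lists, 18 have their own single-gene probe set. Named genes are the 3 members, up to 4 per list by size of change, and the genes highest in likeness (5, 5 and 3) with the 3 most opposite to FaTA. The acyl carrier protein, acyl-lipid thioesterase, plastid acyltransferase, carbon supply, regulator, triacylglycerol assembly and surface lipid lists had no tested gene, so they have no result here. Alternatives were other offsets, scalings, filters and variance models, the title letter as a block, leaving out each array, and, added after the data were seen, leaving out 6 seed arrays with a 25S ribosomal RNA control signal over 1000.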

Additional observations from a re-analysis of the deposited data

How the results depend on the processing

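Of 738 alternative values over 48 results, 731 were scored as unchanged. For a tested change this means the same call and, where called, the same direction. The total is not a count of calls alone, since it holds gene counts and likeness rankings. It also holds pair changes of 3 arrays against 3, which could not change their call because an exact p under 0.1 is not possible. FATB in seeds stage 10 over stage 6, not called under any setting, stood at -0.22 and at 0.04 with arrays centred on reference genes. Uncalled differences near 0 also changed sign under the block or without 1 array: FATB in seeds stage 6 over siliques stage 5, AT4G13050 in siliques stage 5 over stage 4, and FaTA in seeds stage 7 over stage 6 and stage 10 over stage 9. With an offset 4 times larger, AT4G13050 in seeds stage 9 over stage 8 stood at -0.82 and was no longer called, and the change of FaTA minus AT4G13050 in seeds stages 9 and 10 over stages 6 and 7 was 0.25 (adjusted p = 0.193); the cause was not tested. The title letters do not pair the arrays: deviations of same-letter arrays correlated at -0.053 to 0.103 over 45 pairs, 1 of them above 0.1. With the letter as a replicate block, AT4G13050 stood at 1.01 (limma adjusted p = 0.0833) in siliques stage 5 over stage 3 and at 0.9996 (adjusted p = 0.094) in stage 4 over stage 3, no longer called. Under the block, siliques stages 4 and 5 are linked to the other groups only through seeds stage 10 array D. The block changed no other call of the 3 genes. Leaving out any 1 array changed no call of the 3 genes. Leaving out the 6 arrays of high 25S control changed no call in the comparisons without seeds stages 8 and 10. It left those stages with array B alone, so calls that involve them are not read. The values in seeds stage 10 over stage 6 were then -2.86 for FaTA, -3.60 for AT4G13050 and -0.28 for FATB. Of the genes most like each member, 3 of 5 for FaTA, 3 of 5 for AT4G13050 and 1 of 3 for FATB also led when r was taken over the 24 arrays. The 12 pathway genes gave 8 to 9 rises in siliques stage 5 over stage 3, and 9 to 10 falls in seeds stage 8 over stage 7, over the alternatives run.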
